A study of Mus musculus with 2 samples.

Results

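Stefin-high late neutrophils were a group of 600 barcodes among the 2349 deposited for cells sorted from mouse femurs and vertebrae after ovariectomy (OVX) or sham surgery. A barcode stands for 1 droplet and, as a rule, 1 cell. The group was defined by 5 conditions on the UMIs of a barcode, a UMI being 1 counted RNA molecule. The genes Stfa2, Stfa2l1 and Cstdc5 together made up at least 0.2% of its gene UMIs, and Camp, Ngp and Ltf together less than 1%. Mki67 and Top2a together had fewer than 2 UMIs, Prg4 and Dcn made up less than 0.5%, and S100a8 and S100a9 at least 5%. All cells came from female BALB/c mice that had surgery at 10 weeks of age and were taken 4 weeks later. For each condition 20 mice were pooled, so each condition was 1 pool without a replicate. The bones were digested with trypsin and collagenase, and cells were sorted with antibodies to CD11b, F4/80 and CD68. OVX cells carried hashtag 1 and sham cells hashtag 2, which are antibodies with a DNA tag, and both pools were run together in 1 droplet library. Of the cells loaded, 1037 were OVX and 1084 sham per the labels, and the hashtag UMIs assigned 1059 barcodes to OVX and 981 to sham. More barcodes were thus assigned to OVX than the labels give as loaded OVX cells, and why was not tested. When 80% or more of the hashtag UMIs had to be of 1 hashtag, 956 barcodes were OVX and 1166 sham. Of the stefin-high cells, 460 were OVX and 111 were sham. A further 20 were above the cutoff for both hashtags and 9 were under both, and these entered no main comparison of conditions. With 1 pool per condition no test between OVX and sham was possible. Every interval given is an exact 95% interval for counting error only and does not cover the spread between mice.

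Neutrophils are short-lived phagocytes made in the bone marrow. They make their secondary granule proteins (Camp, Ngp, Ltf) at an immature stage, stop dividing, and in late stages carry abundant S100a8 and S100a9, the subunits of calprotectin, together with receptors for leaving the marrow and for migration. Stefins are small cytosolic cystatins that block cysteine proteases such as cathepsins, and the mouse carries an expanded stefin A cluster on chromosome 16. OVX removes the main source of oestrogen and is a standard model of postmenopausal bone loss. Myeloid cells resident in bone were the population under study.

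The start regions of the 5 stefin genes with at least 100 CPM in the group are shown, because these genes carry its description. Levels are in CPM, the UMIs of a gene per 1000000 gene UMIs, with UMIs first added up within each class or condition. Each window runs from 150 bases before to 50 bases after the RefSeq start (GRCm38.p6), 5′ to 3′ along the gene. Capitals mark ACCTTTAAAACCC and GATCATTTCTTCT, the longest runs of letters that all 5 windows share, each of 13 bases.
Stfa2l1 start region, chr16:36156661-36156860, plus strand: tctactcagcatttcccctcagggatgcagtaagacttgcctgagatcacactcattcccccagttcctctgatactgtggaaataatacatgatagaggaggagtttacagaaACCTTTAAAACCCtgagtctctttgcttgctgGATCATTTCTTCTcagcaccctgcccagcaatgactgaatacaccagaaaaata
Cstdc4 start region, chr16:36184062-36184261, plus strand: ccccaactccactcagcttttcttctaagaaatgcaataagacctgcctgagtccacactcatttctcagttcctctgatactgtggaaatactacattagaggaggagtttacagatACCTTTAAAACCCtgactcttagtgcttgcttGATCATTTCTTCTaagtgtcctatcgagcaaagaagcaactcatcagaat
Cstdc5 start region, chr16:36367521-36367720, minus strand: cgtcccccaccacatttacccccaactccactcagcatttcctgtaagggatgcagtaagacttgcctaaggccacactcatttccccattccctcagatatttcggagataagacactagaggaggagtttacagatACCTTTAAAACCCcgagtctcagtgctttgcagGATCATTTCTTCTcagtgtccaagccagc
Stfa2 start region, chr16:36408314-36408513, minus strand: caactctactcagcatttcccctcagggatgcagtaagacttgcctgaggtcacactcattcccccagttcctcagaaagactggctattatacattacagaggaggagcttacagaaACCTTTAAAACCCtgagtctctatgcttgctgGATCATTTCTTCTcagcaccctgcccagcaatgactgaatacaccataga
Stfa3 start region, chr16:36455343-36455542, minus strand: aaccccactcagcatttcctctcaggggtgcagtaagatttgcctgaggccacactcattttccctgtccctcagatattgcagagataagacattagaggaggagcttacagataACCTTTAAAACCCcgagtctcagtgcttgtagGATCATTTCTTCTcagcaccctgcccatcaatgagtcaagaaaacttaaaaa
Both runs, searched on both strands, occurred in 9 of 32851 windows of the same length over all RefSeq genes (0.0274%). The 9 genes were Csta3, Cstdc3, Cstdc4, Cstdc5, Gm7260, Stfa1, Stfa2, Stfa2l1 and Stfa3. The second run was found in 1 more window, that of 1700010I02Rik. The windows of Stfa2 and Stfa2l1 were 88.7% identical. Transcripts of Cstdc5 and Stfa1 were 96.8% identical overall and 98.5% over their last 200 bases, the part that a 3′ library reads, so the split of counts between these genes is uncertain. On GRCm38, Stfa2l1 lies on chromosome 16 from 36156811 to 36161953 and Cstdc4 from 36184212 to 36188111, both on the plus strand. Cstdc5 lies from 36359382 to 36367748, Stfa2 from 36403992 to 36408457 and Stfa3 from 36450537 to 36455392, all on the minus strand. These spans come from a second gene annotation (GENCODE), whose starts differ from RefSeq for Cstdc5 and Stfa2. By these spans Stfa2 begins upstream of its RefSeq start and Cstdc5 upstream of its whole window. In the Cstdc5 window the first run lay at -12 to 1 from the RefSeq start, against -36 to -24 in Stfa2l1.

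The values that chose the group are given as a description. The 3 stefins of the rule made up a median of 0.681% of the UMIs of a stefin-high cell, with quartiles of 0.361 and 1.52% and a maximum of 7.75%. The cells just inside the threshold had 0.2002 and 0.2011%, and those just outside had 0.1971 and 0.1970%. There was no gap at the threshold. Among the 1412 late neutrophils, stefin-high and stefin-low together, 412 had no UMI of these stefins, 137 had a share of 0.1 to 0.2% and 100 had a share of 0.2 to 0.3%. UMIs of all 3 stefins were present in 349 stefin-high cells, of 2 in 171 and of 1 in 80, and in 4 cells the share rested on 1 or 2 UMIs. Stfa2l1 had the most UMIs of the 3 in 253 cells, Cstdc5 in 243 and Stfa2 in 84. The stefin threshold was also met by 138 secondary-granule immature neutrophils (Camp, Ngp and Ltf at 1% or more), 33 cycling barcodes, 24 barcodes with little S100a8 and S100a9 and 5 barcodes with Prg4 and Dcn, which failed another condition.

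The RNA of the group was that of neutrophils, although the cells had been sorted as macrophages. All 9 listed neutrophil markers were at 100 CPM or more. Most of their summed level of 275506 CPM was S100a9 (138254 CPM) and S100a8 (115923 CPM), which the rule required. The other 7 were Retnlg (13210 CPM), Mmp9 (2331 CPM), Cxcr2 (1771 CPM), Mmp8 (1382 CPM), Ly6g (1328 CPM), Csf3r (1006 CPM) and Il1r2 (303 CPM). Of 12 macrophage markers, 7 had a UMI and none reached 100 CPM. Their sum was 92.7 CPM (83.6 to 103), of which Cd68 gave 73.6 CPM, while C1qa, C1qb, C1qc, Mrc1 and Vcam1 had no UMI. Adgre1, which encodes the F4/80 antigen of the sort, had a UMI in 7 of 600 cells. The neutrophil precursor list was led by Ngp (1610 CPM), and Elane and Ctsg had no UMI. The sums were 141 CPM for the monocyte list (Fn1 the highest), 6.71 CPM for dendritic cells, 1.74 CPM for B cells, 16.7 CPM for T or NK cells (Cd3d alone) and 0.746 CPM for erythroid cells. Of the osteoclast list, only Mmp9, which neutrophils also make, was above 100 CPM. Retnla, given as a marker of the group, was not a property of its cells. Its 456 UMIs came from 7 of 600 cells, 349 of them from 1 OVX cell.

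Stefin-high late neutrophils were the largest class of OVX cells and a small class of sham cells. They made up 43.4% of OVX cells (40.4 to 46.5%, 460 of 1059) and 11.3% of sham cells (9.40 to 13.5%, 111 of 981), 3.84 times the sham share (3.11 to 4.77). Stefin-low late neutrophils, which met the same conditions with a stefin share under 0.2%, went the other way, with 25.7% of OVX and 48.2% of sham cells. Both kinds together were 732 OVX and 584 sham cells. Within the stefin-high cells the median stefin share was 0.835% in OVX and 0.404% in sham, and the ratio of the OVX to the sham share of late neutrophils above a threshold was larger at higher thresholds, while the shares themselves became small. At 0.1%, 71.9% of OVX and 28.3% of sham late neutrophils were at or above it (ratio 2.54, 2.13 to 3.05). At 0.2% the shares were 62.8 and 19.0%. At 1% they were 26.8 and 2.05% (ratio 13.03, 7.29 to 25.7), and at 2% they were 11.9 and 0.856%, which is 87 and 5 cells. Outside the group the same order held among secondary-granule immature neutrophils, of which 65.0% in OVX (55.6 to 73.5%) and 32.1% in sham (24.9 to 39.9%) reached 0.2%.

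**Figure D1:**
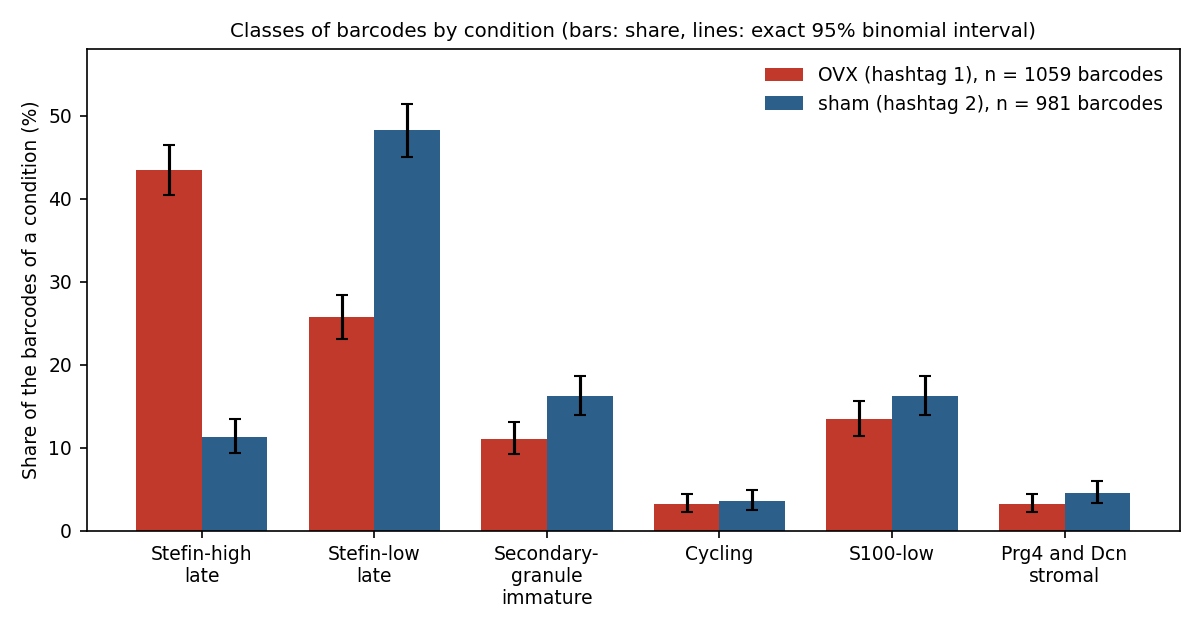
Share of the assigned barcodes of each condition (vertical axis, %) in each of 6 classes (horizontal axis), red for OVX and blue for sham; lines are exact 95% binomial intervals. Stefin-high late neutrophils were 43.4% of OVX and 11.3% of sham cells, and stefin-low late neutrophils 25.7 and 48.2%.

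**Figure D2:**
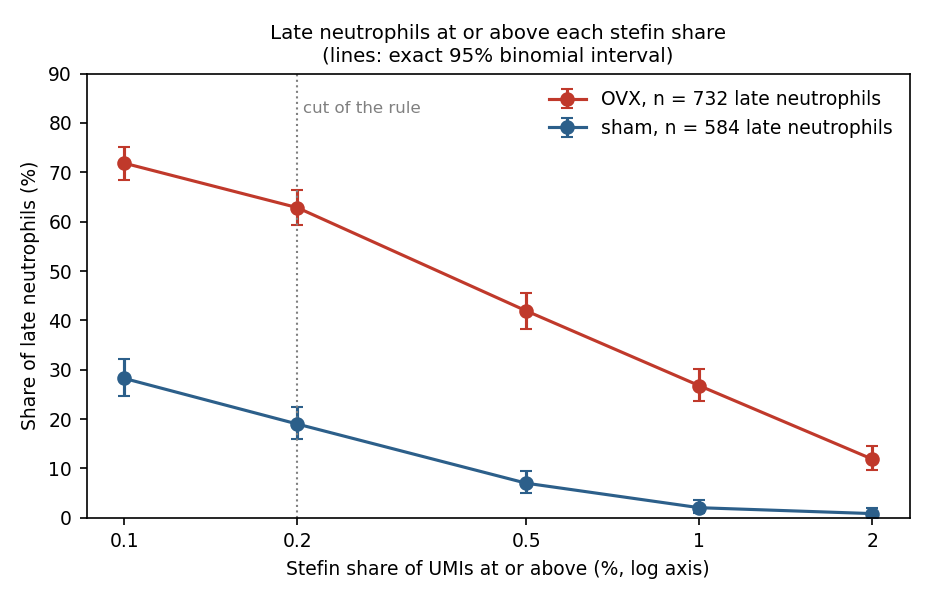
Share of late neutrophils (vertical axis, %) whose stefin share was at or above the value on the horizontal log axis (%), for 732 OVX and 584 sham cells; lines are exact 95% binomial intervals. The shares fell from 71.9 to 11.9% in OVX and from 28.3 to 0.856% in sham.

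OVX cells of the group also had more UMIs per barcode. The median was 5608 UMIs in the 460 OVX cells and 4060 in the 111 sham cells, with summed UMIs of 3326444 and 554050. In stefin-low late neutrophils it was 3470 in OVX and 3233 in sham. At a stefin share of 0.2 to 0.5%, 0.5 to 1% and 1% or more, it was 4253, 5043 and 6740 in OVX. In sham it was 3773, 4559 and 8443, the last from 12 cells. Why the counts per barcode differed was not tested. The share of mitochondrial UMIs had a median of 0.487% in OVX and 0.214% in sham, and 1 OVX barcode reached 80.7%. S100a8 and S100a9 together had a median of 23.2% in OVX and 25.3% in sham. When each barcode was reduced to 1000 UMIs before the rule was applied, the shares were 46.4% of 1011 OVX and 14.1% of 896 sham cells, which is 3.299 times as high.

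Against stefin-low late neutrophils the group differed in few genes beyond the stefins. Of 1255 genes with at least 100 CPM in either class, 9 were higher by 2-fold or more (0.717%) and 3 were lower (0.239%). The classes were split by the stefins themselves, so these ratios are a description. Stfa2 had 3752 CPM in stefin-high and 40.3 CPM in stefin-low cells, Cstdc5 had 5586 and 135 CPM and Stfa2l1 had 3582 and 297 CPM. Of the stefin A list, all 5 genes at 100 CPM or more were among the 9, including 2 that the rule did not use. Cstdc4, another stefin A relative and the most abundant gene of the list, had 10513 CPM against 3276 CPM (ratio 3.21, 3.14 to 3.28). Stfa3 had 287 against 46.7 CPM (ratio 6.15, 5.19 to 7.33). Cstdc6 and Stfa1, which stayed under 100 CPM, had 46.7 and 10.7 CPM in stefin-high cells against 2.44 and 0 CPM. The related cystatins outside the cluster did not follow, with Cstb at 0.78 times and Cst3 at 1.18 times their stefin-low levels. None of 5 cathepsins was past 2-fold.

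The other genes past 2-fold were Retnla, Wfdc21 (a small secreted protein with a WAP antiprotease domain), Lrg1 (a secreted leucine-rich glycoprotein of neutrophil granules) and Fam20c (a kinase of secreted proteins). The classes differed in make-up, since 80.6% of the assigned stefin-high cells and 36.5% of the assigned stefin-low cells were OVX, and the conditions were therefore also compared apart. Of the 9 genes, 5 were past 2-fold in both conditions, namely Stfa2, Stfa2l1, Cstdc5, Cstdc4 and Retnla. In sham the last rested on 2 UMIs against 1 (ratio 6.53, 0.340 to 385). Cstdc4 was 2.68 times higher in OVX and 2.38 times higher in sham. Wfdc21 was at 2.49 times the stefin-low level over all cells, but at 1.52 times within OVX (1.47 to 1.58) and 1.24 times within sham (1.12 to 1.38). Fam20c was at 2.16 times over all cells, 1.21 times within OVX and 1.59 times within sham. Stfa3 was 7.61 times higher in OVX and 1.07 times in sham (0.692 to 1.60, 32 UMIs in stefin-high cells), and Lrg1 1.63 and 0.996 times. Gja5, a gap junction gene just short of 2-fold, was 1.57 times higher in both conditions. The lower genes included Pf4 and Thbs1. Pf4, a platelet chemokine, owed 98.2% of its UMIs in the stefin-low class to 5 cells. Thbs1, which encodes the matrix protein thrombospondin-1, had 872 CPM in stefin-high and 2251 CPM in stefin-low cells, but was within 2-fold in each condition, at 0.646 times the stefin-low level within OVX (0.600 to 0.696) and 0.838 times within sham (0.790 to 0.888).

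**Figure D3:**
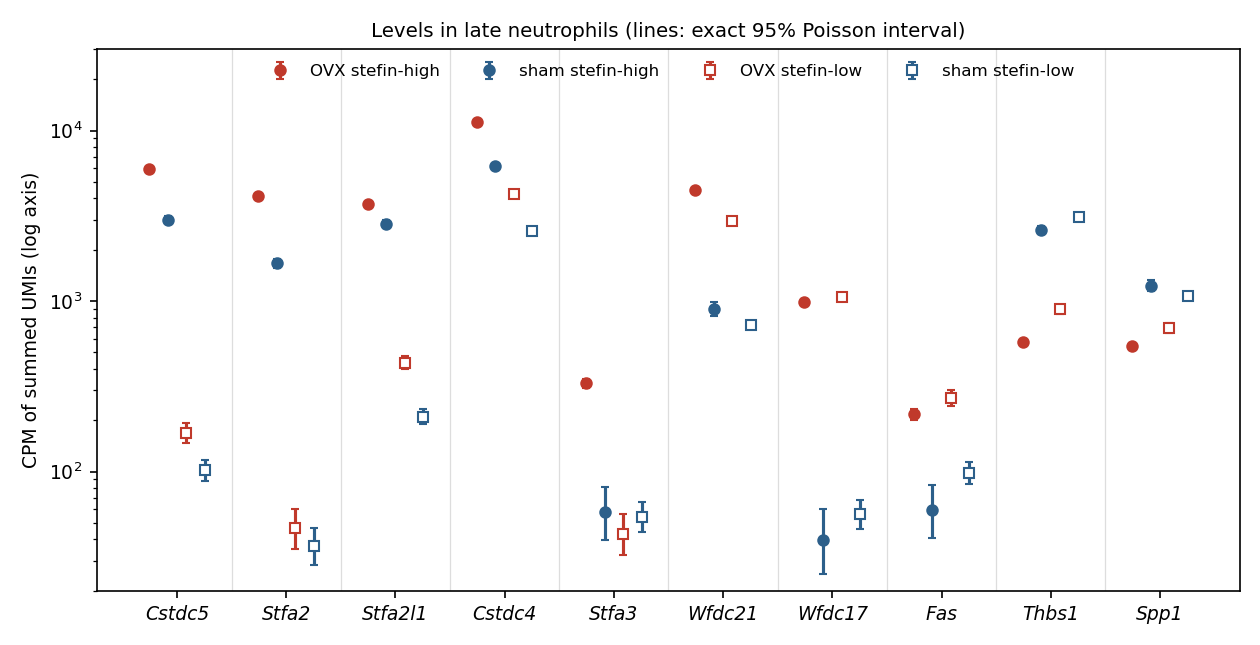
CPM of summed UMIs (vertical log axis) for 10 genes (horizontal axis) in OVX (red) and sham (blue) cells, filled circles for stefin-high and open squares for stefin-low late neutrophils; lines are exact 95% Poisson intervals, often smaller than the symbol. The intervals of stefin-high and stefin-low cells of the same condition did not overlap for the stefins, except for Stfa3 in sham (57.8 and 54.2 CPM), while Wfdc21, Wfdc17, Fas, Thbs1 and Spp1 separated the conditions in both classes.

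Within the group the other stefins followed the stefin share of the rule. In cells with a share of 0.2 to 0.5%, 0.5 to 1% and 1% or more (242, 141 and 217 cells), Cstdc4 had 7045, 10283 and 13373 CPM and Stfa3 had 60.5, 152 and 538 CPM. The rise of Cstdc4 was seen in OVX (7675, 10613 and 13958 CPM), whereas in sham it had 5099, 8591 and 5972 CPM, the last from 12 cells. Ccl4, a chemokine, had 187, 339 and 76.6 CPM, and Il1b, an inflammatory cytokine, had 351, 341 and 242 CPM. Cd52, a short GPI-anchored surface protein, had 722, 754 and 1004 CPM. Stfa2, part of the sum by which the cells were divided, had 491 CPM in the lowest and 7526 CPM in the highest range.

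Against secondary-granule immature neutrophils the group had the RNA of a later stage. Of 1289 genes, 134 were higher by 2-fold or more (10.4%) and 142 were lower (11%), and the median log2 ratio over all genes was 0.17. The lower genes were led by the granule genes that divided the classes by rule. Camp had 57.7 CPM against 3679 CPM, Ltf 131 against 3493 CPM and Ngp 1610 against 20450 CPM. Of 12 secondary granule genes, 8 were lower by 2-fold or more, and those outside the rule included Lcn2 (1668 against 6824 CPM), Chil3, Pglyrp1 and Olfm4, whereas Mmp8, a collagenase, was higher by 2.54 times (1411 against 345 CPM within OVX and 1173 against 629 CPM within sham). Of 71 cytosolic ribosomal protein genes, 63 were lower by 2-fold or more and all 71 were lower, beside 11 and 40.2% of all genes. Ribosomal proteins took 1.29% of the UMIs of stefin-high cells and 3.27% of those of immature cells. Cybb, the catalytic subunit of the phagocyte oxidase, had 33.8 against 223 CPM.

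Genes of late neutrophils were higher. Beside each count below stand 10.4% of all genes that were higher by 2-fold or more, 11% that were lower and 59.8% that were higher at all. Of 13 maturity and homing receptors, 6 were past 2-fold, among them Csf3r, the receptor for G-CSF (ratio 4.07), Cxcr2, the receptor for marrow exit (2.13), and Fpr1, a formyl peptide receptor (3.42). Of 12 inflammatory mediators, 10 were past 2-fold and all 12 were higher. They included the chemokines Ccl4 (174 against 11.3 CPM, ratio 15.3, 10.6 to 22.9), Ccl3 (5.78 times), Ccl6 (3.63 times), Cxcl3 (4.58 times) and Cxcl2 (3.76 times), as well as Il1b (3.39 times). Il1rn, the antagonist of the IL-1 receptor, was at 1.28 times. Fas, a death receptor, had 196 against 29.1 CPM (6.73 times, 5.32 to 8.62), and Wfdc17, another WAP-domain gene, had 830 against 74.5 CPM. These ratios pool the conditions, and 80.6% of assigned stefin-high but 42.4% of assigned immature cells were OVX. Within OVX, Wfdc17 had 991 against 155 CPM, and within sham 39.7 against 12.8 CPM, from 22 and 16 UMIs. Fas had 217 against 37.0 CPM within OVX and 59.6 against 25.6 CPM within sham. Counts within a condition were 147 genes higher and 134 lower in OVX, and 135 higher and 118 lower in sham. Among antioxidant genes 4 of 14 were past 2-fold, including Slc7a11, the cystine transporter (3.04 times), Hmox1, haem oxygenase (2.22 times), and Fth1, ferritin heavy chain (2.02 times). Of 6 interferon-stimulated genes, 3 were lower by 2-fold or more, all of the Ifitm family (Ifitm2, Ifitm3 and Ifitm6), and Slfn1 was higher.

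The 460 OVX and 111 sham cells of the group, which were also part of the comparisons above, were then compared with each other. Of 1272 genes with at least 100 CPM in either condition, 37 were higher in OVX by 2-fold or more (2.91%) and 17 were lower (1.34%), and the median log2 ratio was -0.10. Wfdc17 and Wfdc21 lie near each other on chromosome 11 of GRCm38 (83703991 to 83706268 and 83746940 to 83752642, plus strand) and were both far higher in OVX. Wfdc17 had 991 CPM in OVX (957 to 1025) and 39.7 CPM in sham (24.9 to 60.1), a ratio of 24.95 (16.5 to 39.9). It had a UMI in 252 of 460 OVX cells and in 7 of 111 sham cells, and 5 of the latter held 90.9% of the 22 sham UMIs. Wfdc21 had 4470 CPM (4398 to 4542) and 899 CPM (822 to 981), a ratio of 4.97 (4.55 to 5.45). The median cell had 3276 CPM of Wfdc21 in OVX and 514 CPM in sham, and the lower quartile of OVX cells (1592 CPM) lay above the upper quartile of sham cells (1392 CPM). Slpi, the secretory leukocyte peptidase inhibitor, was at 1.68 times, and Serpinb1a at 0.796 times. Retnla had the largest ratio (37.8, 10.4 to 313), from 454 UMIs in 5 OVX cells and 2 UMIs in 2 sham cells.

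**Figure D4:**
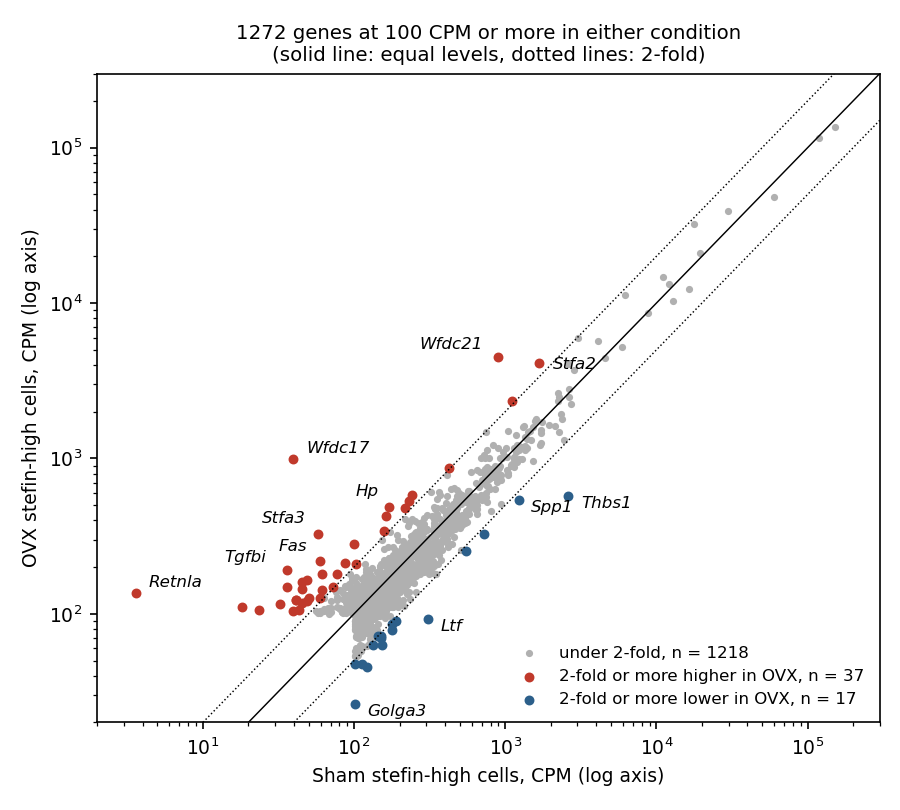
CPM in sham (horizontal log axis) and OVX (vertical log axis) stefin-high late neutrophils for 1272 genes, with a solid line at equal levels and dotted lines at 2-fold. The 37 red points were higher and the 17 blue points lower in OVX by 2-fold or more, with Wfdc17, Retnla and Wfdc21 farthest above and Thbs1 and Golga3 farthest below.

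All 5 stefins were higher in OVX, but the cells had been chosen by 3 of them and had a higher stefin share in OVX. The ratios were 1.99 for Cstdc5, 2.48 for Stfa2 (4134 and 1664 CPM) and 1.31 for Stfa2l1. Of the 922 sham UMIs of Stfa2, 59.7% came from 5 cells. Stfa3 had 329 CPM in OVX (309 to 349) and 57.8 CPM in sham (39.5 to 81.5), a ratio of 5.69. It had a UMI in 169 of 460 OVX and 11 of 111 sham cells, and 5 cells held 81.25% of its 32 sham UMIs. Cstdc4 had 11291 and 6173 CPM, a ratio of 1.83. Of 5 cathepsins, 1 was higher by 2-fold or more, beside 2.91% of all genes. It was Ctsb, a lysosomal cysteine protease, with 342 and 157 CPM (ratio 2.18).

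Among the other genes higher in OVX, Fas had 217 CPM in OVX (202 to 234) and 59.6 CPM in sham (41.0 to 83.6), a ratio of 3.65 (2.57 to 5.34), and had a UMI in 268 of 460 OVX and 19 of 111 sham cells. The other 7 genes of the survival and death list at this level, among them Mcl1 (1.14 times) and Cflar (0.817 times), were within 2-fold. Tgfbi, a secreted matrix protein induced by TGF-beta, had 191 and 36.1 CPM (ratio 5.29, 3.40 to 8.72). Fam20c had 150 and 36.1 CPM (4.15), and Ralgds, an exchange factor for Ral GTPases, 106 and 23.5 CPM (4.52). Gm46224, annotated as a long intergenic RNA, had 116 and 32.5 CPM. Hp, or haptoglobin, had 488 and 170 CPM (2.88), the only secondary granule gene higher by 2-fold or more. Further genes past 2-fold were Siglece (2.13) and the receptors Jaml (2.31) and Clec4e (2.02), as well as Sod2, mitochondrial superoxide dismutase (2.33). Csf3r was at 1.45 and Cxcr2 at 1.13 times.

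Thbs1 was the gene with the lowest ratio. It had 576 CPM in OVX (551 to 603) and 2621 CPM in sham (2488 to 2759), 4.55 times less in OVX, and had a UMI in 234 of 460 OVX and 94 of 111 sham cells. Spp1, which encodes osteopontin, had 542 and 1229 CPM, a ratio of 0.441 (0.404 to 0.483). Pdia3, a disulphide isomerase of the endoplasmic reticulum, was at 0.437, and Tmed5, a cargo protein of the early secretory pathway, at 0.410 times the sham level. Olfm4, a secondary granule gene, had 256 and 554 CPM, and AA467197 had 326 and 720 CPM. For AA467197, 131 of its 399 sham UMIs were in 1 cell, and the median cell had 146 CPM in OVX and 373 CPM in sham. AI662270, annotated as a processed transcript, was at 0.418 and Tinagl1, a matrix glycoprotein, at 0.460 times. Ltf and Camp were at 0.302 and 0.378 times, but both are genes of the rule and 84.2 and 77.6% of their sham UMIs came from 5 cells. Golga3, a Golgi protein, was at 0.262 times, with 49 of its 56 sham UMIs in 1 cell, and with each cell given equal weight it was higher in OVX.

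Gene lists gave the following counts at 100 CPM or more. Of 165 listed genes of function, 12 were higher in OVX by 2-fold or more (7.27%) and 3 were lower (1.82%), beside 2.91 and 1.34% of all genes. The higher ones were the genes Stfa2, Stfa3, Ctsb, Wfdc17, Wfdc21, Retnla, Hp, Siglece, Jaml, Clec4e, Sod2 and Fas. The lower ones were Ltf, Camp and Olfm4. Stfa2, Ltf and Camp are genes of the rule, Wfdc21 and Retnla were given markers, and the lists were chosen with earlier results known, so nothing is read from the listed share being above that of all genes. No gene was past 2-fold among 13 actin and migration genes, 12 granulopoiesis transcription factors, 8 tertiary granule genes, 10 glycolysis genes, 7 cell-cycle arrest and P53 target genes, 6 interferon-stimulated genes, 6 subunits of the phagocyte oxidase or 5 S100 genes. No MHC class II gene reached 100 CPM. Among inflammatory mediators 8 of 12 were higher in OVX, beside 39.3% of all genes. Of the 12, 2 were higher by 2-fold or more. Both are among the higher genes named above, which include no chemokine or interleukin. The median log2 ratio of the list was 0.36, with Cxcl2 at 1.56 and Ccl3 at 1.55 times. Ccl4 was at 0.696 times, but 5 cells held 95.5% of its 134 sham UMIs, and it had a UMI in 125 of 460 OVX and 11 of 111 sham cells. Ribosomal proteins took 1.22% of OVX and 1.69% of sham UMIs, and 59 of 60 cytosolic ribosomal protein genes were lower in OVX with a median log2 ratio of -0.48, 2 of them (Rpl31 and Rpl32) by 2-fold or more. This rested on few sham cells, since 5 of them held 43.3% of the sham ribosomal UMIs, and the median cell had 1.01% in OVX and 1.00% in sham. In comparisons chosen after seeing the data, 34 of 60 genes were lower without cells over 3 times the median UMIs (median log2 ratio -0.04) and 40 of 60 with equal weight per cell (-0.11), none by 2-fold or more, beside 60.7% of all genes that were lower with summed UMIs. Mitochondrial genes took 0.645 and 0.451%, and mt-Co1 had 2326 and 1101 CPM. Summed levels of other cell types were higher in OVX for the macrophage list (98.0 and 59.6 CPM, Cd68 the highest), the monocyte list (151 and 84.8 CPM, Fn1 the highest) and the endothelial list (69.4 and 25.3 CPM, nearly all Pecam1), and lower for the neutrophil precursor list (1618 and 2691 CPM). Most of the latter was Ngp, a gene of the rule, with 1479 CPM in OVX and 2258 CPM in sham, where 5 cells held 53.3% of its UMIs, and the median cell had 193 and 202 CPM. The part of these levels, of depth and of the mitochondrial share in the other results was not tested.

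Several of the largest differences between the conditions were also seen outside the group. Of the 10 genes with the highest ratios, 6, among them Wfdc17, Wfdc21, Ralgds, Fam20c and Gm46224, were higher in OVX in 6 of 6 classes of barcodes. The classes include the group itself. Of the 10 genes with the lowest ratios, AI662270 alone was lower in OVX in 6 of 6 classes. Golga3 and Tmed5 were lower in 5, and Pdia3, Spp1 and Tinagl1 in 4. Ltf, Camp and AA467197 were each lower in 3 and higher in 3. The same count over all genes is not given here, so nothing is read from these numbers beyond the genes named. In stefin-low late neutrophils Wfdc17 had 1053 CPM in OVX and 56.4 CPM in sham (ratio 18.7, 15.3 to 23.1), Wfdc21 had 2937 and 724 CPM (4.06) and Fas had 269 and 97.8 CPM (2.75). Thbs1 had 892 and 3128 CPM in these cells, and it was lower in OVX in 5 of 6 classes, the stromal barcodes being the exception. Within the OVX cells Wfdc17 did not separate the 2 late classes, with 991 CPM in stefin-high and 1053 CPM in stefin-low cells, a ratio of 0.941 (0.883 to 1.00). Stfa3 was higher in OVX in 4 of 6 classes and was at 0.797 times the sham level in stefin-low cells (0.561 to 1.12), where 5 cells held 71.9% of its 153 UMIs. Whether these ratios differ between classes could not be tested with 1 pool per condition.

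Dividing the group by stefin share left these differences in place. Between 0.2 and 0.5% (153 OVX and 70 sham cells) Wfdc21 had 3668 and 694 CPM, between 0.5 and 1% (111 and 29 cells) 4347 and 892 CPM, and at 1% or more (196 and 12 cells) 5048 and 1378 CPM. Wfdc17 had 911 and 41.5 CPM in the lowest range and 1173 and 79.6 CPM in the highest. In the middle range it had 726 CPM in OVX and no UMI in sham, for which the interval reached 26.5 CPM. Fas had 244 and 69.1, 237 and 43.2, and 190 and 55.7 CPM in the 3 ranges. Thbs1 had 656 and 3285, 712 and 2123, and 458 and 1640 CPM, lower in OVX in each. In each range the counting intervals of OVX and sham did not overlap for Wfdc21, Wfdc17, Fas or Thbs1. Hp followed the same order (516 and 190, 401 and 201, 513 and 87.6 CPM). Sham cells at 1% or more were few and held 5008 CPM of Ngp against 1478 CPM in OVX.

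**Figure D5:**
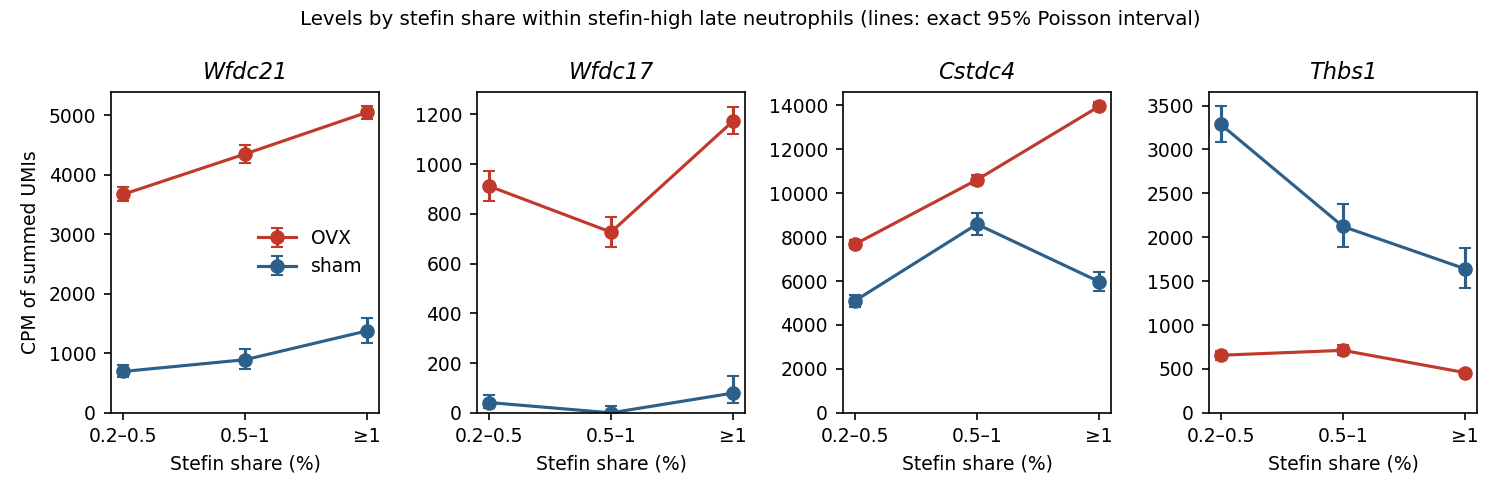
CPM of summed UMIs (vertical axes, from 0) of Wfdc21, Wfdc17, Cstdc4 and Thbs1 by stefin share of the cell (horizontal axes, %), red for OVX (153, 111 and 196 cells) and blue for sham (70, 29 and 12 cells); lines are exact 95% Poisson intervals. OVX lay above sham in every range for the first 3 genes and below it for Thbs1.

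Shares of cells with a UMI were compared after each cell was reduced to 1000 UMIs, which left out 7 OVX and 7 sham cells. Wfdc21 was found in 84.5% of OVX (80.9 to 87.7%) and 45.2% of sham stefin-high cells, and Wfdc17 in 31.1 and 2.88%. Fas was found in 19.6 and 4.81% and Thbs1 in 23.2 and 60.6%. Without this step the shares for Fas were 58.3 and 17.1%. Stromal barcodes, which should lack the neutrophil transcripts Wfdc21 and Wfdc17, had a median of 22458 UMIs before the step, against 5718 in OVX and 4234 in sham cells of the group. Their shares were 0% for Wfdc21 and 0.562% for Wfdc17 at 1000 UMIs, and 27.5 and 6.88% without thinning. Without thinning, Wfdc17 had a UMI in 7 of 111 sham cells of the group. Thinning removed a larger part of the UMIs of the deeper stromal barcodes, so their thinned shares can understate the level from free RNA. At 1000 UMIs the intervals of the sham (0.599 to 8.20%) and stromal (0.0142 to 3.09%) shares of Wfdc17 overlapped, and how much of the sham level of Wfdc17 was free RNA was not tested. Csf3r was found in 62.5 and 42.3% and Cxcr2 in 78.1 and 74.0%. Cd52 was found in 43.3% of both.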

How the data were processed

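Gene and hashtag UMI counts of 1 droplet library were used as deposited. Per the labels, the authors made these counts with Cell Ranger 6.0.1 (the file header names 6.0.0) on mm10, which is GRCm38. From the counts, HTODemux (Seurat 5.3.0, R 4.3.3, positive quantile 0.99) assigned each barcode to OVX or sham. Barcodes above both hashtag cutoffs or under both were left out of the main comparisons of conditions, and no other doublets were removed. No barcode was repeated. UMIs were summed per class and condition (Python 3.11.15, numpy 2.4.6, pandas 2.3.3). Exact Poisson, Clopper-Pearson and conditional binomial intervals (scipy 1.17.1) cover counting error at the depth of each group. Counts of genes used ratios of 2-fold or more among genes at 100 CPM or more in either group. The steps were tested on simulated data. Named genes were those of the rule, the given markers, the 10 largest and 10 smallest ratios, and in each list the most abundant gene and the extreme ratios. Further genes of the lists were named after their values were seen. A few genes that this rule names are not reported here. The group and the lists were chosen with earlier results of these data known. Alternatives changed the thresholds, the hashtag assignment, the barcode filter, the weighting and the thinning.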

Additional observations from a re-analysis of the deposited data

Results flagged for a closer look

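Stefin-high late neutrophils without an assigned condition stood outside the main comparisons. Among the 78 barcodes above the cutoff for both hashtags, 20 met the rule (25.6%, 16.4 to 36.8%), and their median was 4413 UMIs and a stefin share of 0.418%. Among the 231 barcodes under both cutoffs, 9 met it (3.90%, 1.80 to 7.27%), with a median of 3029 UMIs and a stefin share of 0.363%. They were picked out because they carry the stefin signal in barcodes that the main comparisons of conditions did not use. The 9 under both cutoffs had a median of 42 UMIs of hashtag 1 and 968 of hashtag 2. The 20 above both cutoffs had 3975.5 and 4601. When a condition was assigned by a hashtag share of 80% or more instead, the group had 436 OVX and 119 sham cells.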

How the results depend on the processing

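The share of stefin-high late neutrophils was higher in OVX than in sham under all 12 alternatives. The ratio was 2.95 at a stefin threshold of 0.1%, 6.94 at 0.5% and 15.1 at 1%, and lay between 3.299 and 4.47 under the other 9. Counts of genes higher and lower in OVX were 69 and 33 at 50 CPM, 16 and 5 at 200 CPM, 86 and 99 at 1.5-fold, and 145 and 232 at a stefin threshold of 1%, where 12 sham cells remained. With S100a8, S100a9 and the stefins left out of the total, 28 genes were lower. Against stefin-low cells the counts were 14 and 5 at 50 CPM and 28 and 29 at 1.5-fold, and 10 genes were lower at a stefin share of 0.5% or more. Among listed genes 27 were higher and 12 lower in OVX at 1.5-fold and 50 CPM. Wfdc17 was found in 22.8% of OVX cells at 500 UMIs and 54.8% without thinning, and Fas in 9.78 and 58.3%, with 17.1% of sham cells without thinning. The log2 ratio of the highest to the lowest range of stefin share was 0.86 in OVX and 0.23 in sham for Cstdc4, and 0.46 and 0.99 for Wfdc21. Directions turned for Golga3 (log2 ratio 0.43 with equal weight per cell and 1.65 without the deepest cells), for Lrg1 against stefin-low cells in sham (-0.0065), and for Retnla against immature cells in sham (-3.11). Of the 298 values of single genes under alternatives, 294 kept their direction. The cause of these changes was not tested. No paired analysis was possible because each condition was 1 pool in 1 library. Depth limits the sham values of the group, which rest on 111 cells and 554050 UMIs.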
